A study of Mus musculus with 10 samples.

Results

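The genes described here encode the receptor complex that senses lipopolysaccharide (LPS) and the proteins that pass its signal on. The 10 genes were Tlr4, Tlr2, Cd14, Ly96, Myd88, Ticam1, Irak2, Irak3, Irak4 and Traf6, of 21887 genes in the annotation used. A peak was assigned to a gene when it overlapped the gene body extended by 10 kb on each side, by at least 1 base. The 10 windows covered 423.874 kb of GRCm38 and held 117 merged regions of 235070 in all, a region being a stretch of overlapping peaks from any of the libraries.

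The peaks came from CUT&Tag, in which an antibody brings a transposase to the protein it binds and the released fragments are sequenced. RAW264.7, a wild-type macrophage line from a male mouse tumour induced by Abelson murine leukemia virus, was used throughout, so that all groups come from 1 line, and 200000 cells went into each library. The groups, of 3 libraries each, were compared after 12 h of treatment: DMSO (the solvent), LPS together with DMSO (called LPS below), and LPS+Skatole, skatole being an indole that intestinal microbes form from tryptophan. The labels give the antibody as p65 (RelA, a DNA-binding subunit of NF-κB), and the study's methods as an antibody against its phosphorylated form. A Blank sample, for which those methods describe no primary antibody, was not analysed here, and nothing states that libraries of a group came from separate cultures, so that the spread between them may be technical.

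LPS is handed by CD14 to the TLR4 and MD-2 complex at the cell surface, MD-2 being the product of Ly96, while TLR2 recognises bacterial lipoproteins. The activated receptors recruit the adaptor MyD88, which assembles IRAK4 and IRAK2 and then the ubiquitin ligase TRAF6, and TLR4 also signals through TRIF, the product of Ticam1. Both branches end in the release of NF-κB into the nucleus. IRAK3, also called IRAK-M, is a macrophage member of the kinase family that restrains this signal.

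The lists differed in length and depth between the groups. The DMSO libraries held 37551 to 43450 peaks, the LPS libraries 55637 to 63498 and the LPS+Skatole libraries 78136 to 80153. The genome background, the number of fragments expected at a position of a library away from any local excess, was taken as a measure of depth and was 1.09 to 1.40 in DMSO, 2.23 to 2.34 in LPS and 2.26 to 2.39 in LPS+Skatole. DMSO thus had the lowest depth and the shortest lists, and depth and treatment cannot be told apart in that group. LPS and LPS+Skatole had like genome backgrounds but lists of different length. Scaled by that background, the median log2 difference of all regions was 0.27 between LPS+Skatole and LPS, so counts at peaks were not matched. Of 8 macrophage genes, 7 carried peaks in all 9 libraries (Adgre1, Csf1r, Itgam, Spi1, Cd68, Lyz2 and Fcgr1) and Mrc1 in 7. Of 14 genes of other cell types, 3 did (Cd3g, Cd4 and Cd79a), and Krt8 had a peak in 1 library, so peaks also lay near genes that define other cell types. The summed peaks of the macrophage list were 26 to 36 in DMSO, 43 to 48 in LPS and 50 to 58 in LPS+Skatole. Those of the other cell types were 13 to 16, 18 to 29 and 23 to 29 in the same order, and the part of either list in the results was not tested.

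Promoter sequences from RefSeq (GRCm38.p6; 250 bases before to 50 after a gene's start) were matched for 7 of the 10 genes; Tlr4, Cd14 and Ly96 had none. Peaks lay on the windows of Tlr2, Myd88, Ticam1, Irak2 and Irak4 in all 9 libraries, on that of Traf6 in 4 and on 1 of the 2 Irak3 windows in 2. The 4 windows below are shown for their motif matches (Tlr2 and Myd88), for summits close together in all libraries (Ticam1) and for peaks mainly in LPS (Traf6). They are chr3:83841559-83841858 for Tlr2, chr9:119339969-119340268 for Myd88 and chr17:56276718-56277017 for Ticam1, all on the minus strand, and chr2:101678170-101678469 for Traf6 on the plus strand. Each is written in the direction of the gene. Capitals mark the κB consensus in Tlr2 and the interferon response motif in Myd88. In Ticam1 and Traf6 they mark the stretch between the outermost summits that fell inside the window, 1 per library, from all 9 libraries in Ticam1 and from the 3 LPS libraries in Traf6.
Tlr2: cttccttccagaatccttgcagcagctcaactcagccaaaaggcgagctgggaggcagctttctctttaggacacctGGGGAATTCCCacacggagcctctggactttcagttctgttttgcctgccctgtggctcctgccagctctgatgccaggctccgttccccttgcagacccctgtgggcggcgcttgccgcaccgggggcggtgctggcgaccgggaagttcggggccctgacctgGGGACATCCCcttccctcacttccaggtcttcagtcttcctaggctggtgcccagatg
Myd88: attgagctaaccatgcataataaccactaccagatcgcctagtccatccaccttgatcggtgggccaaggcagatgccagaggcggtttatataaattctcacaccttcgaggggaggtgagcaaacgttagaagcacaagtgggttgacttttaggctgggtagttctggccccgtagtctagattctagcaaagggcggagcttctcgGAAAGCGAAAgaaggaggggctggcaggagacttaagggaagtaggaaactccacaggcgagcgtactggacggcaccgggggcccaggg
Ticam1: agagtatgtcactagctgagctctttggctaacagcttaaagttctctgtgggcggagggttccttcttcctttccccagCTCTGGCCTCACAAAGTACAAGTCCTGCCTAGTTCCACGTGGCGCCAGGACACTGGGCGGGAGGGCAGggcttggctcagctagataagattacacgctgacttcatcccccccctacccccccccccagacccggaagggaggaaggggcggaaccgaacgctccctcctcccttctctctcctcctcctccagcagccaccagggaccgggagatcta
Traf6: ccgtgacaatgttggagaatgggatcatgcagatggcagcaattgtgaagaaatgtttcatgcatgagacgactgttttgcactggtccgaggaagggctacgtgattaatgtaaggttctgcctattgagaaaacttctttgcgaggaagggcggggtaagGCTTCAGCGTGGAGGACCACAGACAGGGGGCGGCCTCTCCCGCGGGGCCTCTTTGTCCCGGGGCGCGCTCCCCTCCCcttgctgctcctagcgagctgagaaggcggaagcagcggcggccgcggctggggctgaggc

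The windows were searched on both strands for the 10-base κB consensus by name, the AP-1 motif TGANTCA, the PU.1 core GAGGAAGT and a 10-base interferon response motif, also by name. The κB consensus was found in 1 of the 7 genes, Tlr2, and in 4.51% of 32851 promoter windows of the annotation. Tlr2 had it at chr3:83841771-83841780 and, shifted by 1 base, at chr3:83841772-83841781, which together form the first stretch of capitals, and at chr3:83841607-83841616 over the start itself. The interferon response motif was found in Myd88, at chr9:119340049-119340058, and in 3.44% of all windows. AP-1 and the PU.1 core were found in none of the 7 genes, against 7.81% and 3.20% of all windows. A match is a string of letters and not a tested site.

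Tlr2 had the best-ranked peak among the receptor genes by the median over the libraries. Its body lies at chr3:83836272-83841824, and its window held 4 merged regions, of which chr3:83839869-83846027, across the start, was found in all 9 libraries. Within that region 2 clusters of summits recurred in all 9 libraries, a cluster being summits no more than 250 bp from the next. The upstream cluster, chr3:83845055-83845284, lay 3.65 kb before the start. The other, chr3:83841615-83841986, lay just before the start and overlapped part of the promoter sequence printed above.

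The summit count, which is the number of fragments over the highest base of a peak, was 109, 76 and 89 at the upstream Tlr2 cluster in DMSO. It was 125, 142 and 157 in LPS and 236, 200 and 269 in LPS+Skatole. At the cluster by the start it was 51, 57 and 53 in DMSO, 93, 88 and 99 in LPS, and 56, 71 and 83 in LPS+Skatole. The upstream count was therefore higher in every LPS+Skatole library than in any LPS library, while the count at the start was lower in every LPS+Skatole library than in any LPS library. Since both counts come from the same library, their ratio does not depend on its depth. The ratio of the upstream count to that at the start was 2.14, 1.33 and 1.68 in DMSO, 1.34, 1.61 and 1.59 in LPS, and 4.21, 2.82 and 3.24 in LPS+Skatole.

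In LPS the ratio averaged 1.51 ± 0.15 (SD, n = 3). In LPS+Skatole it averaged 3.42 ± 0.72 (SD, n = 3), with no overlap between these groups. In DMSO it averaged 1.72 ± 0.40 (SD, n = 3), which overlapped LPS. The ratio was formed after the values had been seen, so it is given as a description, and no test of it is used here. Fitted across all 13895 clusters present in the 6 libraries of LPS+Skatole and LPS, the start cluster differed by -0.75 ± 0.25 (SE) on the log2 scale, with an adjusted p of 0.144 (limma, Benjamini-Hochberg). The upstream cluster differed by 0.40 ± 0.18 (SE), with an adjusted p of 0.298 (limma). Neither passed the threshold of 0.05. Scaling each library by its genome background in place of its median gave 0.70 for the upstream cluster (limma adjusted p = 0.0110), with the median of all clusters then at 0.26. With the deposited fold in place of the count the difference turned to -0.042 (limma adjusted p = 0.982). The folds of the upstream cluster were 16.2, 44.3 and 19.3 in LPS and 28.9, 25.2 and 32.3 in LPS+Skatole, which overlapped. Those of the start cluster, 8.16, 8.00 and 8.58 in LPS and 6.15, 8.20 and 6.81 in LPS+Skatole, overlapped as well.

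The summits at the Tlr2 start were compared with the κB letters. In the 3 LPS libraries the strongest summit of the promoter window lay on the same base, 19 bases before the start. In DMSO it lay 12 bases before the start in 2 libraries and outside the window in the third library. In LPS+Skatole it lay at -173, -222 and -7 from the start. The median distance over 9 libraries from the nearest summit to the centre of the κB match at the start was 15.5 bp. The distance to the upstream κB match was 148.5 bp at the median, and 1 LPS+Skatole summit lay within 5.5 bp of it.

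**Figure D1:**
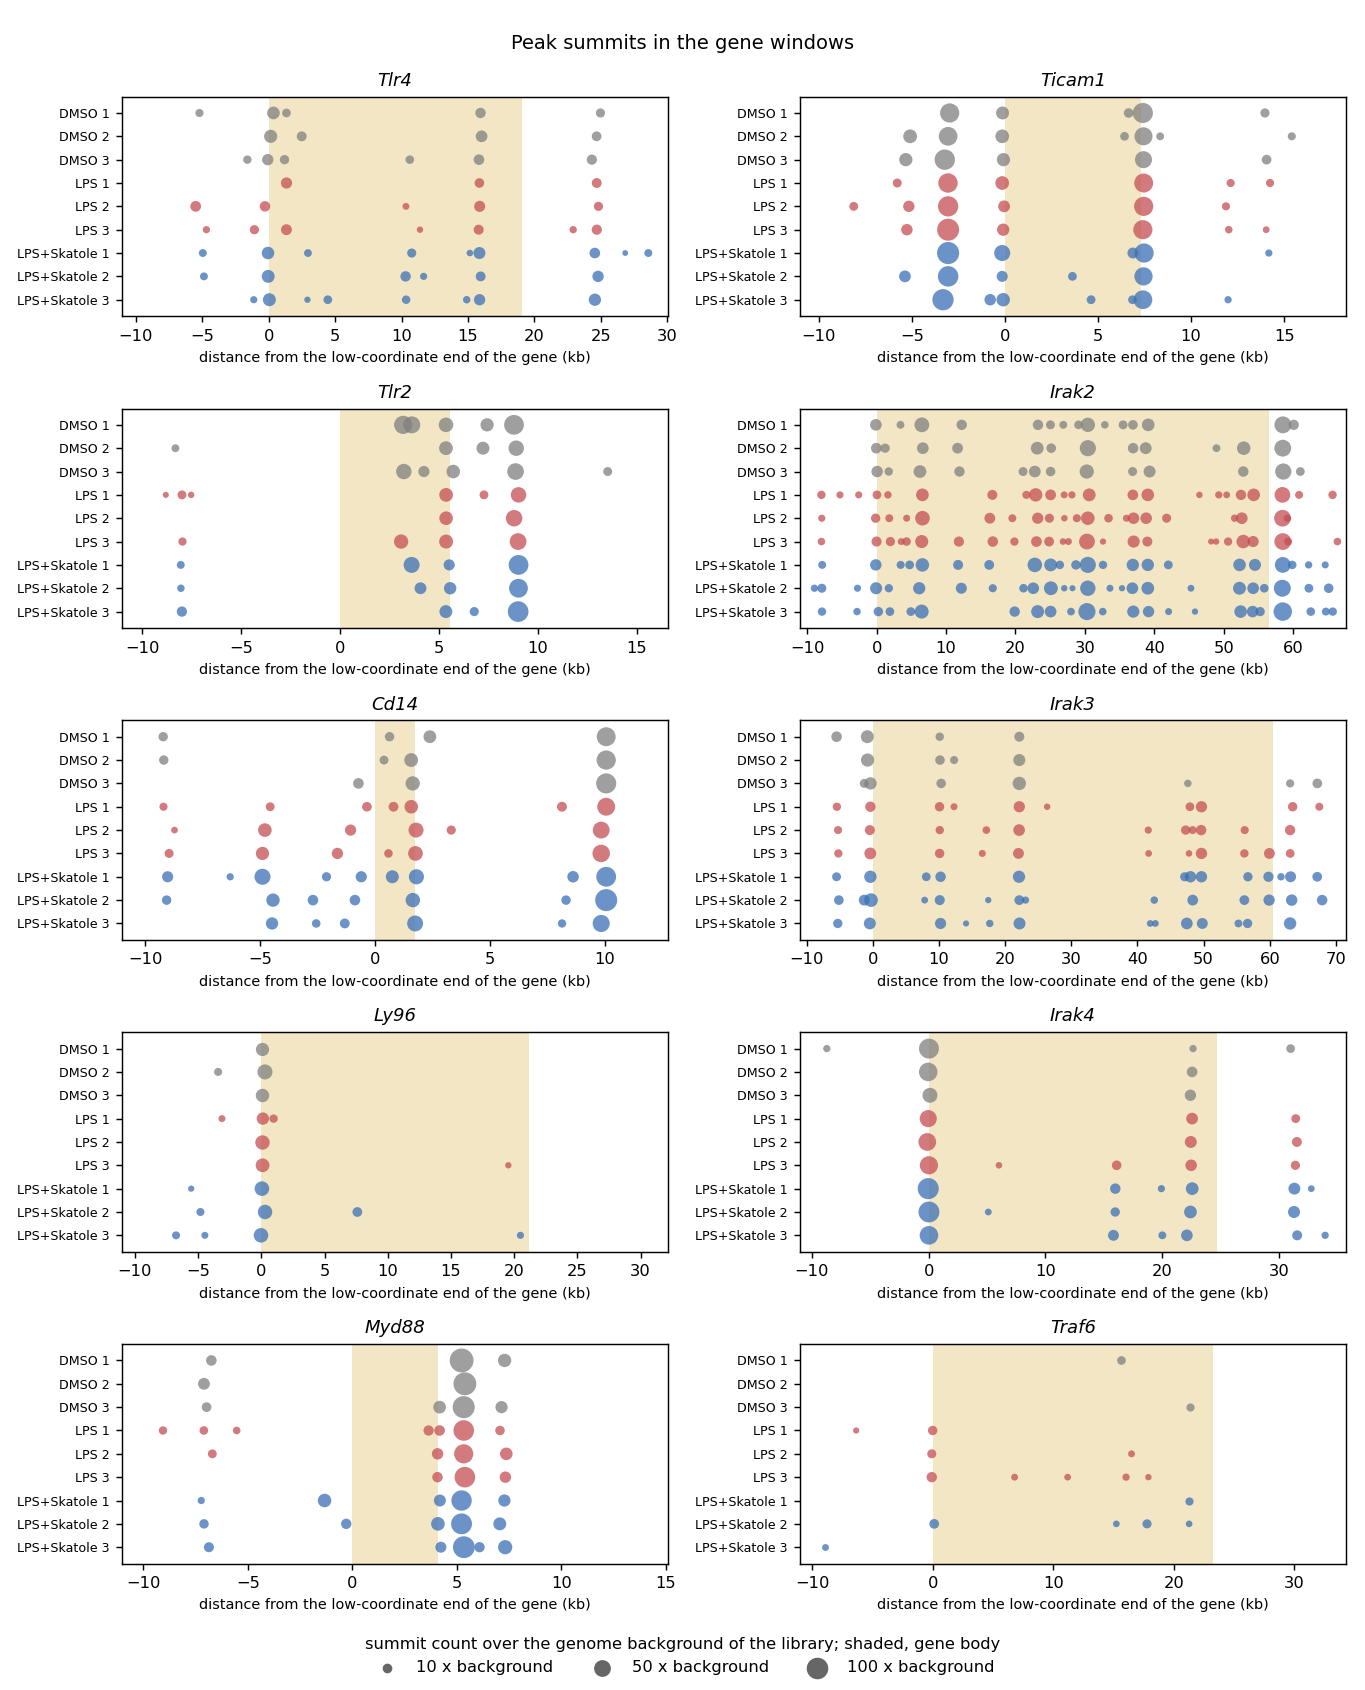
Summits of all peaks in the 10 gene windows, 1 row per library; the x axis is the distance in kb from the low-coordinate end of the gene, the shaded band is the gene body and the dot area grows with the summit count over the genome background of the library. Tlr2 shows the upstream and start clusters in all rows, Irak2 a row of summits along its body, and Traf6 few summits.

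Tlr4, the LPS receptor itself (chr4:66827551-66846581), had 5, 4 and 6 peaks in DMSO, 3, 5 and 7 in LPS, and 9, 6 and 8 in LPS+Skatole. The groups overlapped in each comparison. A merged region across its low-coordinate end, chr4:66825862-66830917, was found in all 9 libraries, as were a region inside the gene (chr4:66841596-66843828) and one 4857 bp beyond the gene (chr4:66851438-66853144). The highest summit counts of the region across the gene end were 36, 51 and 34 in DMSO, 56, 46 and 53 in LPS, and 75, 78 and 84 in LPS+Skatole. Divided by the genome background, they were 33.0, 36.5 and 25.0 in DMSO, 24.4, 20.7 and 22.6 in LPS, and 32.1, 34.5 and 35.1 in LPS+Skatole. So scaled, LPS lay below both other groups, and LPS+Skatole overlapped DMSO. Of all summit clusters so scaled, 24.8% were lower in LPS than in DMSO without overlap, and 23.3% higher in LPS+Skatole than in LPS. The summits of LPS 1 and LPS 3 in that region were not at the gene end but about 1.34 kb inside the gene, at chr4:66828751-66828899. A further region inside Tlr4, chr4:66836318-66838664, carried peaks throughout LPS+Skatole, with counts of 34, 46 and 29, but in only 1 library of each other group (17 in DMSO 3 and 16 in LPS 2).

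Cd14 (chr18:36725064-36726815), which encodes the coreceptor that delivers LPS, had 4, 4 and 3 peaks in DMSO, 7, 6 and 6 in LPS, and 9, 7 and 6 in LPS+Skatole. Every library with LPS had more peaks than any DMSO library. A region 3266 bp outside the gene, chr18:36719937-36721798, had no peak in DMSO and one in all 6 other libraries. Its summit counts were 31, 88 and 86 in LPS and 139, 85 and 74 in LPS+Skatole, which overlapped. In all 9 libraries the best-ranked peak of the window was not at Cd14. It lay at chr18:36734914-36735132, 8.32 kb beyond the high-coordinate end of the gene, in a region that overlaps the neighbour Tmco6. There the counts were 98, 131 and 142 in DMSO, 180, 150 and 173 in LPS, and 235, 298 and 168 in LPS+Skatole. Divided by the genome background, they were 89.9, 93.7 and 104.5 in DMSO and 78.4, 67.4 and 73.8 in LPS. LPS was thus lower without overlap, as were 24.8% of 10628 clusters in all. In LPS+Skatole the scaled counts were 100.4, 131.8 and 70.2, which overlapped both.

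Ly96 (chr1:16688456-16709605), which encodes MD-2, had few peaks: 1, 2 and 1 in DMSO, 3, 1 and 2 in LPS, and 2, 3 and 4 in LPS+Skatole. The only region found in all 9 libraries was at its low-coordinate end, chr1:16686538-16690130. The counts there were 40, 71 and 52 in DMSO, 71, 101 and 95 in LPS, and 110, 104 and 112 in LPS+Skatole. The LPS+Skatole counts exceeded the LPS counts in all libraries, but after centring each library on its median the difference was under the spread between libraries, as the plot of summit signal shows.

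Among the adaptors, Ticam1 (chr17:56269462-56276767) had the best-ranked peak of all 10 genes by the median over the libraries. In DMSO 1 the best peak of Tlr2, at rank 198, stood nearer the top. Ticam1 had 5, 7 and 5 peaks in DMSO, 6 in each LPS library, and 5, 5 and 7 in LPS+Skatole. Its strongest cluster, chr17:56266134-56266492, lay 10.4 kb after the start, beyond the far end of the gene. The summit counts were 102, 122 and 147 in DMSO, 220, 237 and 308 in LPS, and 312, 248 and 288 in LPS+Skatole. In the lists ordered by -log10 p, that peak stood at rank 747, 930 and 459 in DMSO, 274, 197 and 95 in LPS, and 105, 305 and 209 in LPS+Skatole, rank 1 being the top. It was nearer the top in every library with LPS than in any DMSO library, although the LPS lists were longer. Ordered by fold instead, it was no longer so for LPS or for LPS+Skatole. Another Ticam1 region found in all 9 libraries, chr17:56269087-56270105 at the far end of the gene, had counts of 38, 56 and 50 in DMSO, 92, 62 and 72 in LPS, and 140, 53 and 92 in LPS+Skatole, with overlap between LPS and LPS+Skatole.

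The remaining Ticam1 region of this kind, chr17:56275497-56278030, covered the promoter sequence printed above. Its strongest summits fell within 68 bases, 103 to 170 bases before the start, in all 9 libraries. The summit counts were 114, 112 and 94 in DMSO, 208, 208 and 218 in LPS, and 219, 186 and 210 in LPS+Skatole. After centring, the region was 0.37 ± 0.17 (SE) higher on the log2 scale in LPS than in DMSO (limma adjusted p = 0.305). Between LPS+Skatole and LPS the difference was -0.39 ± 0.16 (SE; limma adjusted p = 0.288). Neither passed the threshold, and the first difference turned to -0.44 when the deposited fold took the place of the count.

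Myd88 (chr9:119335934-119340018) had 3, 2 and 4 peaks in DMSO, 7, 4 and 3 in LPS, and 5 throughout LPS+Skatole. The region at its start, chr9:119339345-119341618, also covers the start of the neighbour Acaa1a, an enzyme of peroxisomal fatty acid breakdown. The tall summits of that region stood 1.24 kb before the Myd88 start, at chr9:119341154-119341314. Their counts were 175, 202 and 180 in DMSO, 254, 207 and 261 in LPS, and 254, 260 and 308 in LPS+Skatole. The summits on the Myd88 start itself were lower and were called in 1 DMSO library (45) and in all 6 others (48, 57 and 48 in LPS; 67, 90 and 56 in LPS+Skatole). The counts were higher in LPS+Skatole than in DMSO, but after each library was centred on its median the region differed by -0.38 ± 0.15 (SE) on the log2 scale (limma adjusted p = 0.131). Scaled by the genome background it was called between LPS and DMSO, at -0.48 ± 0.15 (SE; limma adjusted p = 0.0498). So scaled, 716 of 14394 regions in all were called lower, and the median of all regions stood at -0.26.

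Irak2 (chr6:113638467-113695026), which encodes a kinase of the complex built on MyD88, had the most peaks of the 10 genes, in a window of 76.56 kb. It had 15, 12 and 13 peaks in DMSO, 23, 21 and 25 in LPS, and 22, 25 and 23 in LPS+Skatole. The DMSO libraries lay below all others, and the LPS and LPS+Skatole libraries overlapped. Of its 32 regions, 7 were found in all 9 libraries. The tallest cluster inside the gene, chr6:113668735-113669089, stood 30.4 kb after the start with counts of 49, 85 and 60 in DMSO, 78, 87 and 135 in LPS, and 141, 121 and 168 in LPS+Skatole.

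A cluster 25.1 kb after the Irak2 start, chr6:113663318-113663619, had counts of 15, 23 and 22 in DMSO, 51, 32 and 41 in LPS, and 80, 93 and 65 in LPS+Skatole. The 3 groups did not overlap. Divided by the genome background, LPS and DMSO overlapped. With median centring it was the only cluster or region of the 10 genes called in the 3 comparisons, 1.03 ± 0.31 (SE) higher on the log2 scale in LPS+Skatole than in DMSO (limma adjusted p = 0.0312 over 10224 clusters). The fit on clusters was added after the data had been seen, and leaving out 1 library moved the adjusted p (limma) to between 0.0456 and 0.136, under 0.05 only without LPS+Skatole replicate 3. Against LPS the same cluster differed by 0.61 ± 0.29 (SE; limma adjusted p = 0.354). A cluster 36.9 kb after the start, chr6:113675307-113675487, had counts of 18, 29 and 19 in DMSO, 49, 58 and 70 in LPS, and 72, 61 and 72 in LPS+Skatole. Its region was 0.79 ± 0.28 (SE) higher in LPS than in DMSO, which did not pass (limma adjusted p = 0.173).

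Irak3 (chr10:120141648-120202130), the restraining member of the kinase family, had 4, 4 and 7 peaks in DMSO, 10, 11 and 11 in LPS, and 13, 14 and 13 in LPS+Skatole. It was the only one of the 10 genes whose 3 groups did not overlap at all, and its window, of 80.483 kb, was the longest. Without overlap, 13.1% of all genes tested were higher in LPS than in DMSO, and 9.27% higher in LPS+Skatole than in LPS. With every list cut to the length of the shortest, Irak3 stayed higher only in LPS+Skatole against DMSO. Regions with few or no peaks in DMSO lay at both ends of the gene, and 3 near or beyond its high-coordinate end, where transcription starts, are given here, chosen after their values were seen. The region chr10:120188259-120192146 had a count of 12 in 1 DMSO library, 57, 45 and 59 in LPS, and 60, 50 and 65 in LPS+Skatole. The region chr10:120196878-120198701 had no peak in DMSO, 24 and 28 in 2 LPS libraries, and 36, 39 and 37 in LPS+Skatole. A region 2302 bp beyond the gene, chr10:120204432-120205164, had 15 in 1 DMSO library, 36, 44 and 31 in LPS, and 54, 58 and 75 in LPS+Skatole. By contrast, a region inside the gene at chr10:120163245-120164815 was found in all 9 libraries, with 20, 41 and 51 in DMSO, 57, 60 and 53 in LPS, and 71, 39 and 69 in LPS+Skatole.

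Irak4 (chr15:94543613-94568317), the first kinase recruited to MyD88, had 4, 2 and 2 peaks in DMSO, 3, 3 and 5 in LPS, and 6, 5 and 6 in LPS+Skatole. The region over its start, chr15:94543006-94544408, is shared with the neighbour Pus7l. The region near the other end of the gene, chr15:94564738-94566937, had counts of 9, 30 and 34 in DMSO, 63, 64 and 62 in LPS, and 78, 76 and 64 in LPS+Skatole. The difference between LPS and DMSO, 0.92 ± 0.33 (SE) on the log2 scale, was the largest among the regions tested for these genes and did not pass (limma adjusted p = 0.165). DMSO 1, the library of lowest genome background, gave the count of 9.

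Traf6 (chr2:101678420-101701668), the ubiquitin ligase downstream of the kinases, had the fewest peaks summed over the libraries, with 1, 0 and 1 in DMSO, 2, 2 and 5 in LPS, and 1, 4 and 1 in LPS+Skatole. It was the only gene with no region in all 9 libraries. The region over its start, chr2:101678115-101678776, which holds the promoter sequence printed above, had no peak in DMSO, counts of 36, 32 and 47 in the 3 LPS libraries, and 39 in 1 LPS+Skatole library. The LPS summits fell 12, 88 and 87 bases before the start, and that of LPS+Skatole 2, at chr2:101678534, fell after the start and outside the printed window. A library without a peak has no count in its list, so its level there is known only to have missed the threshold of the list, a -log10 p of 5.

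**Figure D2:**
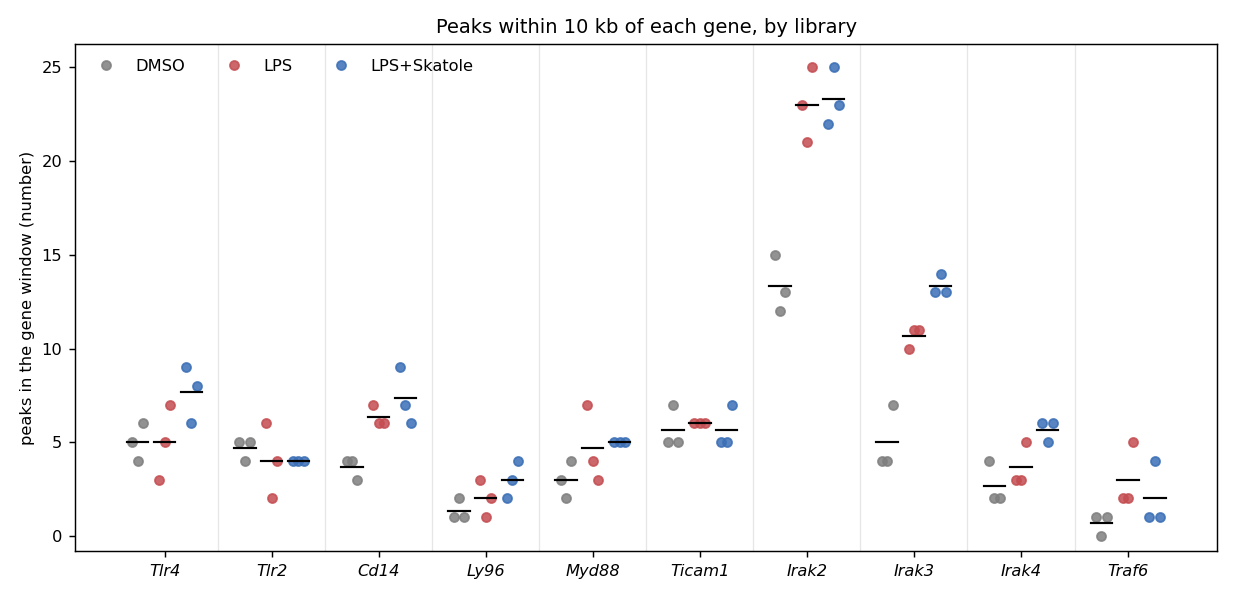
Number of peaks in each gene window (y axis) for the 10 genes, 3 libraries per treatment as points and their mean as a bar. For Cd14, Irak2 and Irak3 the DMSO libraries stand below all others. Irak3 has 4 to 7 peaks in DMSO, 10 to 11 in LPS and 13 to 14 in LPS+Skatole.

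To ask whether LPS changed the number of peaks near these genes, counts per window were compared between groups and called when the libraries did not overlap. Between LPS and DMSO, 4 of the 10 genes were higher (Cd14, Irak2, Irak3 and Traf6) and 0 lower, against 13.1% higher and 0.390% lower over 18192 genes. Between LPS+Skatole and DMSO, 5 were higher (Cd14, Myd88, Irak2, Irak3 and Irak4) and 0 lower, against 26.0% and 0.178% of 19115 genes. Between LPS+Skatole and LPS, Irak3 alone was higher and 0 were lower, against 9.27% and 0.789% of 19139 genes. Each of these pair tests has a smallest exact permutation p of 0.10, and none passed after adjustment over all genes.

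Over the 3 groups jointly, the exact permutation p was 0.00357 for Irak3, the smallest that 280 divisions of the libraries allow, 0.025 for Cd14 and 0.0357 for Irak2. An unadjusted p under 0.05 was reached by 15.8% of 19505 genes, and after Benjamini-Hochberg adjustment over all of them each of these 3 genes had 0.259 in this exact permutation test. The windows of Irak2 and Irak3 were the longest of the 10, at 76.56 and 80.483 kb. Over all genes the summed number of peaks in LPS was 1.40 times that in DMSO, and over the 10 genes 1.52 times. In LPS+Skatole it was 1.24 times that in LPS over all genes and 1.13 times over the 10 genes. The members' change thus lay near that of the lists as a whole. The 10 windows together held 41 to 47 peaks in the DMSO libraries, 61 to 74 in LPS and 76 to 78 in LPS+Skatole.

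When every list was cut to the length of the shortest, the calls largely went. Of the 10 genes 0 were then higher in LPS than in DMSO, and Tlr2 was lower, against 3.16% and 2.59% of all genes. In LPS+Skatole against DMSO, Irak3 stayed higher and Tlr2 and Ticam1 were lower, against 3.65% and 3.64% of all genes. Of the 10, 0 were higher or lower in LPS+Skatole than in LPS, against 1.86% and 2.41%.

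Regions were counted next that had a peak in each of the 3 libraries of one treatment while lacking it throughout the other. From DMSO to LPS 5 regions were gained and 0 lost, against 1.65% gained and 0.0685% lost of 140204 regions. They were the Cd14 and Traf6 regions above, 1 in the Ticam1 window inside Plin3 (chr17:56280841-56281722) and 2 in the Irak2 window, chr6:113654431-113655634 inside Irak2 and chr6:113630176-113631084 inside Vhl. From LPS to LPS+Skatole 1 was gained, chr6:113700499-113700998 inside Tatdn2 in the Irak2 window, and 0 were lost, against 0.583% and 0.129% of 204430 regions. From DMSO to LPS+Skatole 7 were gained and 0 lost, against 2.36% and 0.0434% of 184201 regions. The region inside Vhl had counts of 27, 18 and 21 in LPS and 24, 32 and 28 in LPS+Skatole, and it and the Cd14 region were gained in both comparisons with DMSO. With lists of equal length the region inside Vhl was still gained in both, and the Traf6 region still in LPS.

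**Figure D3:**
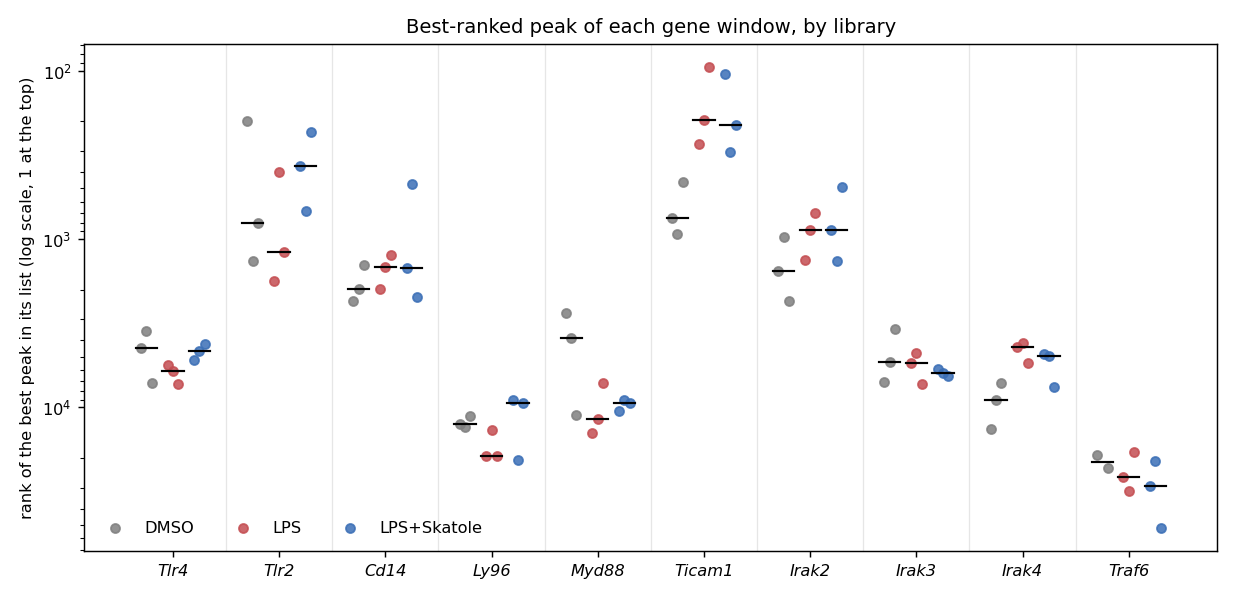
Rank of the best peak of each gene window within its list (y axis, log scale, top of the list at the top), with 3 libraries per treatment as points and their median as a bar. By the medians Ticam1 stands nearest the top, at 95 to 930 over the libraries, and Traf6 farthest, at 18469 to 52038, with no peak in DMSO 2.

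By the rank of the best peak, the order of the genes over all libraries was Ticam1 (median 274), Tlr2 (677), Irak2 (976), Cd14 (1481), Tlr4 (5225), Irak4 (5424), Irak3 (5911), Myd88 (9441), Ly96 (13047) and Traf6 (24487, over 8 libraries). Neighbours in this order overlapped in range over the libraries, except Cd14 (473 to 2325) and Tlr4 (3527 to 7284). The best peak of the Irak2 window was not always inside Irak2. In DMSO 1, LPS 1, LPS 2 and LPS+Skatole 2 it lay 1432 bp outside the gene, in chr6:113696458-113697476, which overlaps the neighbour Tatdn2. Between LPS and DMSO, Ticam1 and Irak4 were nearer the top in LPS without overlap, against 7.02% of 11958 genes. Ly96 was farther from it (11306 to 13047 in DMSO, 13707 to 19578 in LPS), against 10.1%. As a percentile of its list, which takes list length into account, Ly96 was no longer farther. Tlr4 was nearer the top in LPS+Skatole (4229 to 5225) than in LPS (5629 to 7284), against 5.66% of 13229 genes, and 0 of the 10 were farther, against 8.86%. Ticam1 was nearer the top in LPS+Skatole than in DMSO, against 7.24% of 12084 genes, and 0 were farther, against 15.0%. Ordered by fold, 0 of the 10 were nearer and 3 farther (Tlr2, Ly96 and Myd88), against 7.16% and 16.9% of all genes. As percentiles of their lists, which in LPS+Skatole were the longer ones, 7 were nearer, against 31.5% of all genes. After adjustment over all genes none of these exact permutation tests passed.

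The local background, the count expected at a summit from its surroundings, was not flat over these genes. At summits that fell on the same base in 2 libraries, the ratio of the 2 local backgrounds took one of 2 fixed values for that pair of libraries, within 0.1%, at 98.5% of 15665 summits over all pairs. The lists therefore share one background track, scaled to each library. Which library it was made from is not given in the sources used here. At the Irak4 start the local background was 39.5 times the genome background at the median, at the tall Myd88 and Acaa1a summits 36.2 times, and at the Cd14 start cluster (chr18:36726641-36726869) 18.9 times. At the Ly96 start it was 12.0 times, at the Ticam1 start 7.19 times and at the Tlr2 start 4.55 times. At the Tlr4 gene end and the Irak2 start it equalled the genome background.

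Summit count and deposited fold therefore parted at these genes. The Irak4 start had counts of 112, 120 and 68 in DMSO, 161, 170 and 192 in LPS, and 276, 260 and 207 in LPS+Skatole, yet deposited folds of 1.84 to 4.85 and ranks of 10197 to 30600. The Irak2 cluster 30.4 kb after the start had counts of 49 to 168 and folds of 23.9 to 49.8. Of 23 regions of the 10 genes found in all 9 libraries, 3 had a median background over 10 times that of the genome, against 10.3% of 13824 such regions in all.

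**Figure D4:**
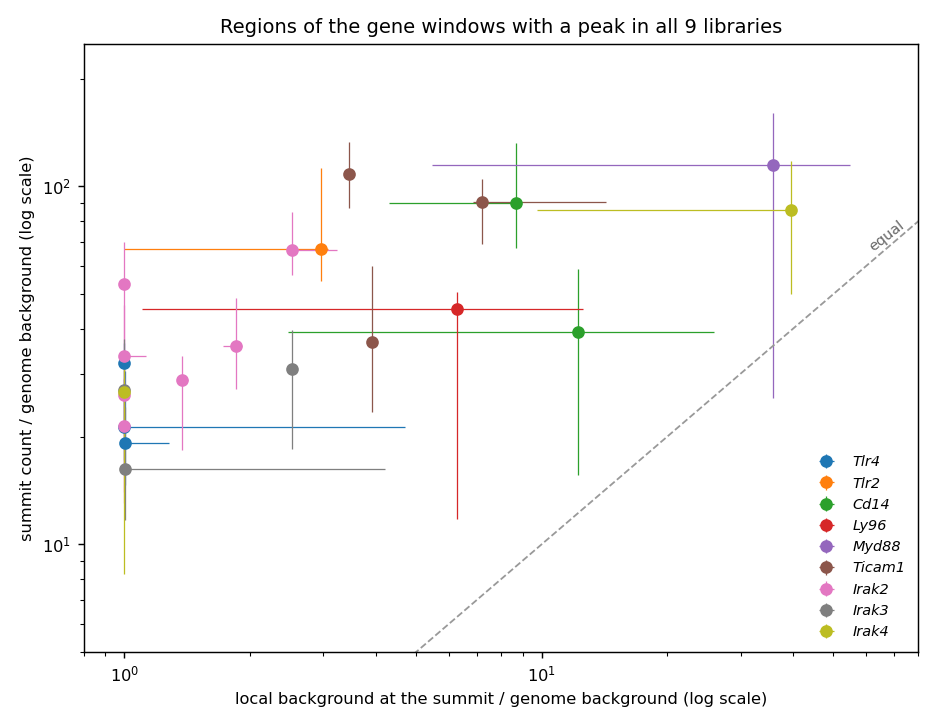
Summit count against local background, both divided by the genome background (log scales), for the 23 regions found in all 9 libraries; points are medians over libraries, bars the range, colours the genes, and the dashed line marks equal values. The Irak4 and Myd88 start regions stand far to the right, and most Tlr4 and Irak2 regions at the left edge.

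Changes in summit count were tested with limma on log2(summit count + 1), centred on the median of each library, over all regions with a peak in every library of the pair. Of the 23 regions of the 10 genes tested between LPS and DMSO, 0 were called, against 1.01% higher and 0.403% lower of 14394 regions. Of these 23, 4 had an unadjusted p under 0.05 (limma), against 14.3% of all regions, and all were higher in LPS: the Irak4 region near the gene end, the Irak2 region 36.9 kb after the start and 2 of the 3 Ticam1 regions tested, that beyond its far end and that at its start. Of 31 regions tested between LPS+Skatole and LPS, 0 were called, against 0.0758% higher and 0.162% lower of 19799, and 2 had an unadjusted p under 0.05 (limma), against 12.2% of all regions, the Ticam1 start region and the Tlr2 region. Of 24 tested between LPS+Skatole and DMSO, 0 were called, against 3.10% higher and 3.36% lower of 14504, and 5 had an unadjusted p under 0.05 (limma), in Tlr2, Irak2, Irak4 and Myd88, against 21.5% of all regions. The median log2 difference of the genes' regions was 0.11 between LPS and DMSO, beside -0.023 over all regions, 0.0033 between LPS+Skatole and LPS, beside -0.046, and 0.025 between LPS+Skatole and DMSO, beside -0.091.

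The same test was run on summit clusters in place of merged regions, chosen after seeing the data. Between LPS and DMSO 0 of 22 clusters of the 10 genes were called, against 1.32% higher and 0.762% lower of 10628, and 4 had an unadjusted p under 0.05 (limma), against 14.6% of all clusters. Between LPS+Skatole and LPS 0 of 31 were called, against 0.173% higher and 0.324% lower of 13895, and 4 had an unadjusted p under 0.05 (limma), against 12.4%. Between LPS+Skatole and DMSO the Irak2 cluster alone was called of 23, against 3.20% higher and 3.63% lower of 10224, and 7 had an unadjusted p under 0.05 (limma), against 21.6%.

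Summit counts were also divided by the genome background of the library and compared without centring. From DMSO to LPS 2 of the 22 clusters were higher and 3 lower without overlap, against 3.83% and 24.8% of 10628. From LPS to LPS+Skatole 10 of the 31 were higher and 1 lower, the latter the Tlr2 start, against 23.3% and 1.58% of 13895. From DMSO to LPS+Skatole 5 of the 23 were higher and 2 lower, against 11.7% and 12.2% of 10224. The comparisons of LPS and of LPS+Skatole with DMSO share the DMSO libraries.

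**Figure D5:**
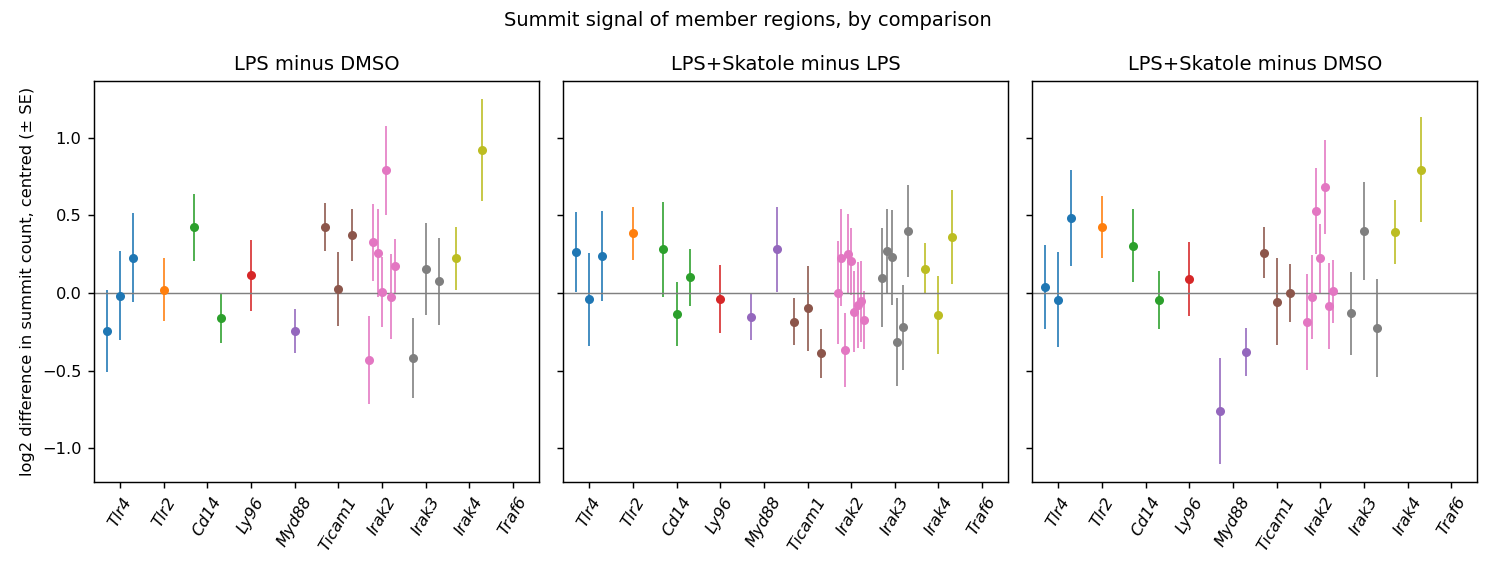
Log2 difference in summit count, centred on the median of all regions (y axis), for each merged region of the 10 genes (points, ordered along the genome within a gene) with its standard error (bars), in the 3 comparisons. The largest difference is 0.92 for an Irak4 region between LPS and DMSO, and Traf6 has no region with a peak in every library of a pair.

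A count of 9 to 30, as at many DMSO summits, carries a counting error that is a large part of the value, while the counts over 200 at Ticam1, Tlr2 and the Myd88 and Acaa1a start are less affected. The lowest summit count listed was 8 to 9 in DMSO and 11 in the other groups. Amplified fragments are not independent molecules, so such errors cover counting only.

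The other genes of the pathway were read from a list of 38, among them 9 other Toll-like receptors, IRAK1, the TAK1 and IKK kinases and the interferon regulatory factors. Of these, 30 had a peak in every library and 0 had none. Between LPS and DMSO 2 were higher in peak number (Pik3ap1, and Sarm1, named after its values were seen), or 5.26% against 13.1% of all genes, and 0 lower, against 0.390%. Between LPS+Skatole and DMSO 9 were higher, or 23.7% against 26.0% of all genes, and 0 lower, against 0.178%. Between LPS+Skatole and LPS 0 differed in either direction, against 9.27% higher and 0.789% lower of 19139 genes. The largest mean differences from DMSO to LPS were at Pik3ap1, an adaptor to phosphoinositide 3-kinase, with 14, 13 and 17 peaks in DMSO and 20, 24 and 25 in LPS, and at Peli1, a ubiquitin ligase, with 4, 3 and 5 in DMSO and 4, 13 and 15 in LPS. They were followed by Traf3 (9, 6 and 5 against 10, 9 and 15), Ikbkb, the IKKβ kinase (3, 3 and 6 against 8, 6 and 8), and Tab2, a partner of TAK1 (9, 5 and 3 against 9, 8 and 10). Of these 5 only Pik3ap1 separated the groups.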

How the data were processed

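CUT&Tag peak lists of 9 libraries were used (DMSO, LPS and LPS+Skatole, 3 each, grouped by title). The deposited lists give, per peak, the fold over the local background (a ratio), the -log10 p and q values and a score of 10 times -log10 p; every peak has -log10 p above 5. The submitters' processing notes list mm10, fastp 0.20.1, HISAT2 2.1.0 and StringTie 2.0 without roles; the peak caller and the control used are not given in the sources used here. The members and gene lists were chosen with earlier results of these data known.

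Chromosomes 1 to 19, X and Y were kept. Whole summit counts and local backgrounds were recovered from fold and p (over 99.99% whole within 0.1) and tested on simulated data. Gene bodies came from the RefSeq table for GRCm38.p6, mm10 being the same build; 26.5 to 30.8% of promoter windows carried a peak, against 2.90 to 6.32% after a shift of 10000 bp. Overlap needed 1 bp. Regions were compared with limma 3.58.1 (R 4.3.3; log2(summit count + 1), median centring, intensity trend, Benjamini-Hochberg over all regions, threshold 0.05), peak numbers and ranks with exact permutation tests over libraries (Python 3.11.15, numpy 2.4.6, pandas 2.3.3, scipy 1.17.1). Named were all 10 members and, of the 38 other pathway genes, those whose peak numbers separate LPS from LPS+Skatole (0 genes did) and the 5 with the largest mean difference between LPS and DMSO. Alternatives were another window, assignment by summit, equal list length, a count of at least 8 times the background, rank by fold or percentile, other scalings, the replicate block, and leaving out each library.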

Additional observations from a re-analysis of the deposited data

How the results depend on the processing

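Main limits are the DMSO depth, the differing list lengths and 3 libraries per group. Under equal list length the peak-number counts became 0 higher and 1 lower (LPS against DMSO), 0 higher (LPS+Skatole against LPS) and 1 higher and 2 lower (LPS+Skatole against DMSO), the joint test gave 1 gene (Tlr2), and regions gained or lost were 3 gained from DMSO to LPS, 4 gained from DMSO to LPS+Skatole and 1 lost from LPS to LPS+Skatole. A 3 kb window gave 2 genes higher between LPS+Skatole and LPS, and 2, 0 and 3 gained regions in the order LPS against DMSO, LPS+Skatole against LPS, LPS+Skatole against DMSO. A summit of at least 8 times the background gave 0 genes higher and 2 regions gained between LPS+Skatole and LPS, as did regions built from summits (2 gained). For these settings no share over all genes or regions is given, so the counts cannot be set against one. The same holds for the joint test and for gained or lost regions at equal list length. Rank by fold gave 1 gene nearer the top in LPS than in DMSO, against 6.76% of all genes. It gave 0 nearer and 3 farther in LPS+Skatole than in DMSO, against 7.16% and 16.9%. Percentiles gave 0 farther in LPS than in DMSO, against 2.39% of all genes. They gave 2 nearer in LPS+Skatole than in LPS, against 15.0%, and 7 nearer than in DMSO, against 31.5%.

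Scaling by the genome background called 1 of 23 regions lower in LPS than in DMSO (Myd88 start, limma adjusted p = 0.0498), against 716 of 14394 in all. It called 1 of 31 higher in LPS+Skatole than in LPS (Tlr2, limma adjusted p = 0.0227), against 742 of 19799 in all. Under it the median of all regions stood at -0.26 and 0.27, against -0.023 and -0.046 with median centring. Summit clusters, added after seeing the data, called 1 higher in LPS+Skatole than in DMSO. With the deposited fold the Ticam1 start region turned to -0.44 (LPS against DMSO), the Tlr2 region to -0.060 (LPS+Skatole against LPS) and -0.81 (against DMSO), and the upstream Tlr2 cluster to -0.042. The cause was not tested.

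Leaving out 1 library, genes higher in peak number ranged from 4 to 5, 1 to 3 and 5 to 6 in the 3 comparisons (LPS against DMSO, LPS+Skatole against LPS, LPS+Skatole against DMSO), and genes lower from 0 to 0, 0 to 1 and 0 to 1. Genes nearer the top ranged from 2 to 3, 1 to 3 and 1 to 3, and farther from 1 to 3, 0 to 2 and 0 to 1. The joint test gave 2 to 4 genes. Gained regions ranged from 5 to 8, 2 to 3 and 8 to 13, lost from 0 to 1, 0 to 2 and 0 to 1, and limma called 0 merged regions throughout. Peak-number and rank calls rest on groups not overlapping, and gained or lost regions on presence throughout 1 group and absence from the other. Leaving out a library can only add to these counts, so their ranges cannot show whether a call is stable. No share over all genes or regions stands beside them. The Irak2 cluster kept its call only without LPS+Skatole replicate 3 and lost it without each other library of the pair, and with the deposited fold (limma adjusted p = 0.0939). The replicate block called 0 member regions in each comparison; same-numbered libraries were not paired by any label, and their deviations correlated at -0.010 to 0.014.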
